A study of Mus musculus with 10 samples.

Results

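The serine and one-carbon pathway was followed here through 10 genes, named by symbol: Phgdh, Psat1 and Psph of serine synthesis, the cytosolic enzymes Shmt1 and Mthfd1, and the mitochondrial enzymes Shmt2, Mthfd1l, Mthfd2, Mthfd2l and Aldh1l2. All 10 were among the 26401 genes of the count table and among the 12964 with enough counts to be tested. Polyadenylated RNA came from 5 populations with high and 5 with low heteroplasmy, that is, with a high or a low share of mitochondrial genomes that carry the mutation m.5024C>T. Both groups were immortalized mouse embryonic fibroblasts, connective tissue cells grown from embryos, with the same mutation, and C57Bl/6N, the name of a mouse strain, stands under their label for treatment. All grew in high-glucose DMEM with fetal bovine serum and uridine, and no other treatment is named. Each population carries its own clone number, and the libraries are called high 1 to high 5 and low 1 to low 5. The labels state neither the mutant share of the single populations nor how the clones were made.

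Serine is made from a glycolytic intermediate and is the main donor of one-carbon units to folate. Serine hydroxymethyltransferase moves a carbon from serine to tetrahydrofolate, and the loaded folates serve the making of purines, thymidylate and methionine. The same steps run in the cytosol and in mitochondria with separate enzymes, and the mitochondrial branch exports formate, which the cytosol uses. In mammalian cells with impaired mitochondria, the transcription factor ATF4 is known to raise Phgdh, Psat1, Shmt2 and Mthfd2.

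None of the 10 genes passed the test between the high and the low populations (edgeR, Benjamini-Hochberg adjusted p under 0.05), where 4.86% of all tested genes did, 1.99% as rises and 2.87% as falls. At an unadjusted p under 0.05 there were 2 of the 10, Phgdh and Psph, both with the lower mean in the high group, beside 21.6% of all genes. DESeq2 called 0 of the 10 as well, beside 10.2% of its tested genes (4.56% as rises, 5.65% as falls), and so did limma-voom, beside 5.1% (1.74% as rises, 3.36% as falls). The median log2 fold change, high over low, was -0.57 over the serine synthesis genes, 0.09 over the cytosolic and 0.21 over the mitochondrial genes, beside 0.02 over all tested genes. The high and low libraries overlapped for all 10 genes, while 7.16% of all tested genes had no overlap. The 10 genes varied within the groups: the SD of log2 CPM (read counts scaled to a common library size) within a group had a median of 0.45 over the 10 genes and of 0.37 over all tested genes, and 9 of the 10 lay above the value for all genes.

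Library totals were 19264064 to 28208576 counts in the high and 17318372 to 24967748 in the low libraries. Fibroblast markers, mainly Col1a1, Vim and Fn1, summed to 9698 to 20044 CPM in the high and 12041 to 13859 CPM in the low libraries. Lum and Fap were at or near 0 in both groups. Dcn was at 0 to 0.609 CPM in the high and 0.489 to 3.53 CPM in the low libraries. Thy1 was at 0 to 56.7 CPM in the high and 0 to 0.326 CPM in the low libraries. Of 12 tested fibroblast markers edgeR called 0, while DESeq2 called Thy1 higher and Dcn lower, and limma-voom Dcn lower. Of 3 adipocyte markers that could be tested 3 rose in edgeR, Fabp4, Plin4 and Pparg. The summed level of the list was 90.9 to 287 CPM in the high against 22.03 to 37.6 CPM in the low libraries. Adipoq was at 0 in every high library and at 0 to 0.0418 CPM in the low libraries. Plin1, Cidec, Cebpa and Retn had too few counts to be tested and reached at most 0.601 CPM in any library. DESeq2 called Fabp4, Plin4, Pparg and Lpl as rises, and limma-voom called Plin4 and Pparg but not Fabp4. Markers of blood cells summed to 11.7 to 89.9 CPM in the high and 12.3 to 26.1 CPM in the low libraries, almost all of it Cd68, with Ptprc at 0 throughout. Epithelial markers summed to 121 to 512 CPM in the high and 453 to 672 CPM in the low libraries, where 1 of 4 tested rose (Krt18) and Krt19, Krt8 and Cdh1 were at log2 fold changes of -1.39, -1.36 and -2.72. DESeq2 called Krt18 higher and 4 lower (Krt19, Krt8, Cdh1 and Epcam), and limma-voom called Krt19 alone, as lower. Neural and glial markers summed to 144 to 281 CPM in the high and 318 to 399 CPM in the low libraries. In edgeR 2 of 6 tested fell (Nes and Tubb3), while Mbp was at 3.13 (adjusted p = 0.0637) and Map2 at 0.60 (0.568). DESeq2 and limma-voom called the same 2 falls, and DESeq2 also called Mbp as a rise. Over all tested genes edgeR called 1.99% as rises and 2.87% as falls. Endothelial markers reached at most 2.13 CPM. Whether these markers have a part in the values of the 10 genes was not tested, and in bulk RNA a change in the cells present and a change in RNA per cell cannot be told apart.

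High 1 stood low across the pathway. It was below the gene's own mean for 10 of the 10 genes and the lowest of all libraries for 6, with a median log2 deviation of -0.78. Low 2 was below the mean for 9 of 10, with a median of -0.29, while low 3 was the highest library for 4 genes. High 1 also had the lowest summed level of 14 proliferation genes, 3532 CPM against 4516 to 5273 CPM in the other high and 4636 to 5184 CPM in the low libraries. It had the largest share of counts on mitochondrially encoded genes, 5.29%, against 1.55 to 2.96% in the other high and 1.09 to 3.00% in the low libraries. Their part in the values of the 10 genes was not tested. Without high 1 the count of called genes among the 10 was 0 as well.

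**Figure D1:**
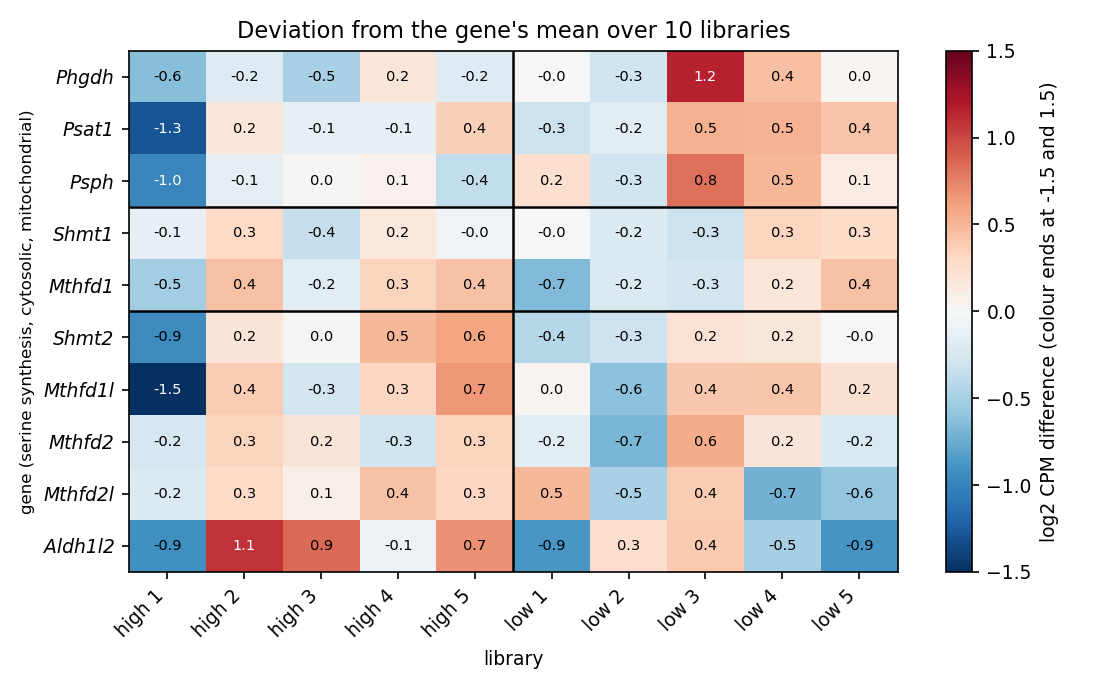
Log2 CPM of each gene minus its mean over the 10 libraries, with genes grouped by branch and high libraries left of low. The column of high 1 is below 0 for all 10 genes, and low 3 is the highest library for Phgdh, Psat1, Psph and Mthfd2.

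Levels are comparable between genes only per length, so they are given as RPKM, which are CPM per kilobase of exon, as the mean over the 10 libraries. Shmt2 stood at 181.5 RPKM, Phgdh at 169.6 and Psat1 at 114, ahead of Mthfd2 at 39.9, Mthfd1 at 31.0 and Shmt1 at 29.4. Psph stood at 21.9 RPKM, Mthfd1l at 21.7, Aldh1l2 at 8.42 and Mthfd2l at 2.15. The ranges over the libraries of neighbours in this order overlapped, except for the lowest pair, where Aldh1l2 ran from 3.92 to 15.8 RPKM and Mthfd2l from 1.26 to 2.91 RPKM. Among the hydroxymethyltransferases the mitochondrial Shmt2 was above the cytosolic Shmt1 in every library. Aldh1l1, the cytosolic counterpart of Aldh1l2, had too few counts to be tested, with 0.0998 to 1.12 CPM in the high and 0.0418 to 0.422 CPM in the low libraries.

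Start regions are shown for 5 genes whose RNA went up and down together in pairs across the libraries, as described further on (Phgdh, Psph, Psat1, Shmt2 and Mthfd1l), and for Mthfd2, which is in none of those pairs. RefSeq (GRCm38.p6) gives a start for 9 of the 10 genes. The windows hold 150 bases, 100 before the start and 50 after it, on the strand of the gene, at chr3:98339920-98340069 (minus strand) for Phgdh, chr5:129787204-129787353 (minus) for Psph, chr19:15925010-15925159 (minus) for the upstream start of Psat1, chr10:127522395-127522544 (minus) for Shmt2, chr10:3972975-3973124 (plus) for Mthfd1l and chr6:83317555-83317704 (minus) for Mthfd2. Capitals mark the letters CCAAT, or ATTGG for its other strand, and in Shmt2 the palindromic core that the respiratory factor NRF1 binds.
Phgdh: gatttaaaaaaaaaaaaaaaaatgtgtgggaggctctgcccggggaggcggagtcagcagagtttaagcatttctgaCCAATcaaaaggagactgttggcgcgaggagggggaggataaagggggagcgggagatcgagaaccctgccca
Psph: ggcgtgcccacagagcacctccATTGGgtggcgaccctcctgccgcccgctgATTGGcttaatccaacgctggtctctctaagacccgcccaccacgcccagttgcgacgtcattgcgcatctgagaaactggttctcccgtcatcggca
Psat1: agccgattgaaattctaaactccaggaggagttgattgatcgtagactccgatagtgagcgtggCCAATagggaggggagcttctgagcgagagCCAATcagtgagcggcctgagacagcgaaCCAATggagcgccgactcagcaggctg
Shmt2: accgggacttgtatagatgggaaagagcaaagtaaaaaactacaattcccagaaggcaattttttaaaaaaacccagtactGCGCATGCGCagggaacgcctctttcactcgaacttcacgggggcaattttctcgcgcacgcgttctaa
Mthfd1l: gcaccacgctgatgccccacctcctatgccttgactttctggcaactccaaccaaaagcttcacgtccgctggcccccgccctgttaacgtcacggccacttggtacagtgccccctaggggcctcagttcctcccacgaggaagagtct
Mthfd2: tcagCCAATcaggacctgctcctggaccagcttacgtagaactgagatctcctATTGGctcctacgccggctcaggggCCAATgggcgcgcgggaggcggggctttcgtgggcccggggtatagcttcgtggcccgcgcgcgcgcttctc

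CCAAT, searched on both strands, was present for 6 of the 9 genes (Phgdh, Psat1, Psph, Shmt1, Mthfd1 and Mthfd2), and 23.4% of all 32851 RefSeq windows of this length hold it. The NRF1 core, which reads the same on both strands, was found for Shmt2, where it begins 19 bases before the start, and is held by 0.728% of all windows. The composite site of ATF4, TGATGNAA on either strand, was in none of the 9 (2.07% of all windows), nor was the E-box CACGTG (4.35%). No match of a motif overlapped a match of another. These are letters in a short window and not measured binding.

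All 3 genes of serine synthesis had the lower mean in the high group, and 0 of the 3 were called. Phgdh (chr3:98313170-98339990, GRCm38) encodes the dehydrogenase that opens the pathway. It had 254, 346, 282, 448 and 347 CPM in high 1 to high 5, against 393, 322, 881, 539 and 405 CPM in low 1 to low 5. Low 3 stood far above every other library, low 4 next, and the remaining low libraries lay among the high ones. The high libraries averaged 335 ± 74.8 CPM and the low ones 508 ± 223 CPM (SD, n = 5 each). On the log2 scale Phgdh differed by -0.60, high over low (SE 0.27, 95% interval -1.19 to -0.01, edgeR adjusted p = 0.222). Without low 3 it was -0.31 (adjusted p = 0.472).

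Psph (chr5:129765558-129787449), the phosphatase that releases serine, had 45.6, 81.8, 91.3, 94.2 and 69.9 CPM in the high libraries, against 107, 73.6, 160.4, 128 and 98.5 CPM in the low libraries. Of the low libraries 4 lay above every high library, and low 2 lay among the high ones. For Psph the log2 fold change was -0.57 (SE 0.24, 95% interval -1.09 to -0.04, edgeR adjusted p = 0.193). Psat1 (chr19:15904678-15947337), the transaminase between these steps, had 187, 519.9, 422, 419 and 589 CPM in the high libraries, against 365, 409.7, 664, 656 and 617 CPM in the low libraries. High 1 was the lowest and low 3 to low 5 the highest, with the others mixed. Its log2 fold change was -0.34 (SE 0.29, 95% interval -0.97 to 0.28, edgeR adjusted p = 0.536), and -0.15 without high 1.

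**Figure D2:**
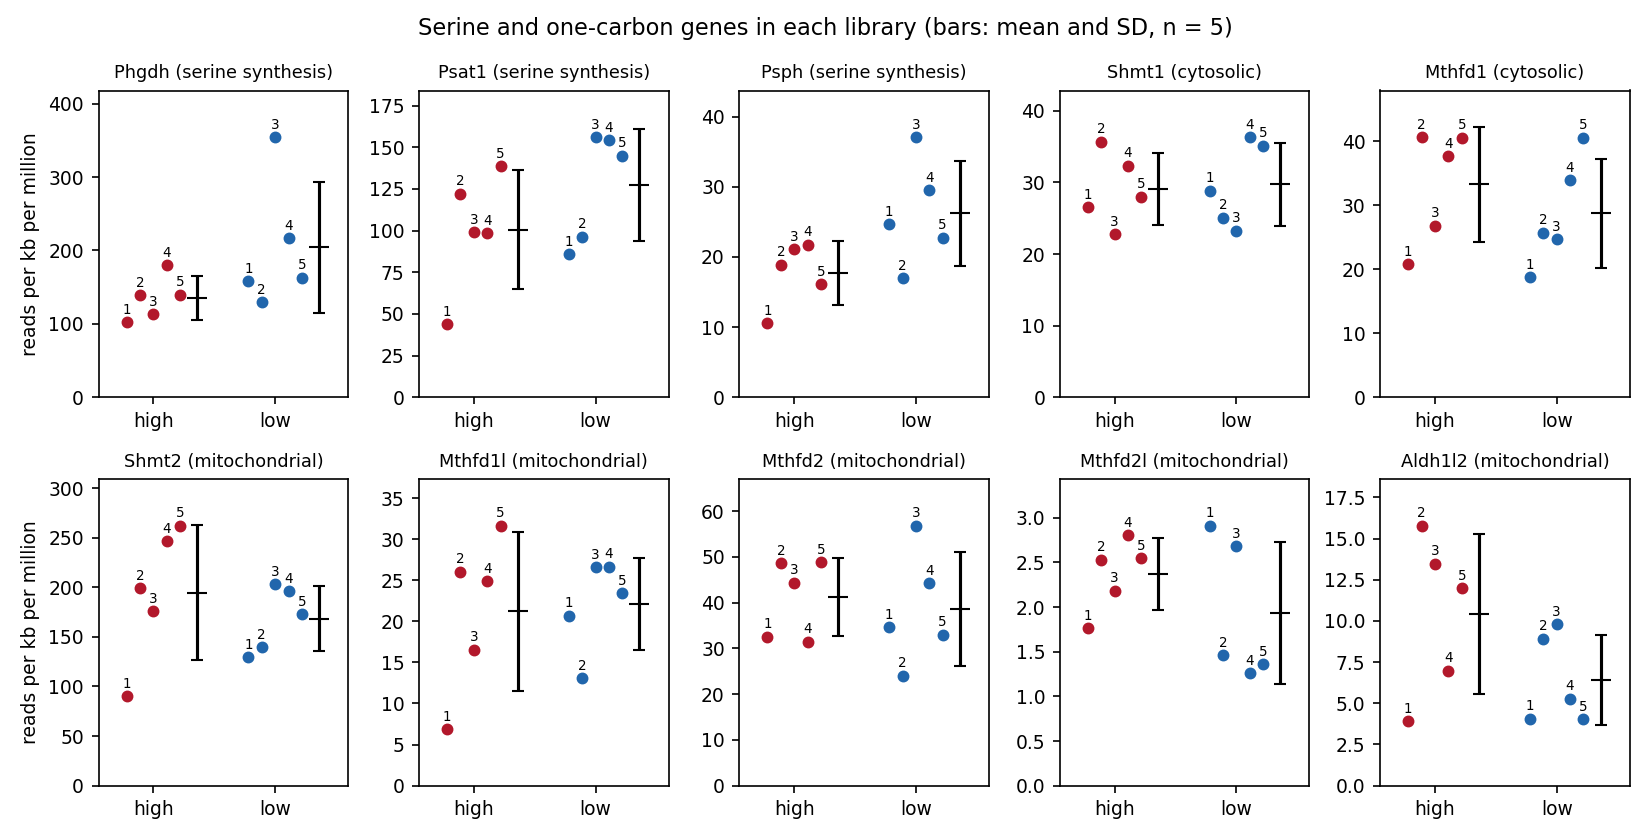
RPKM (CPM per kilobase of exon) of the 10 genes in each library, high in red and low in blue, numbered by library, with bars for the mean and SD (n = 5 each). High 1 sits at the bottom for 6 of the genes, low 3 stands alone at the top for Phgdh, and the groups overlap in every panel.

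The cytosolic enzymes showed no difference beyond the spread of the libraries. Shmt1 (chr11:60788104-60811718), the cytosolic hydroxymethyltransferase, had 103, 139, 88.3, 126 and 108.9 CPM in the high libraries, against 112, 97.4, 90.4, 141 and 136 CPM in the low libraries. It was the steadiest of the 10 genes and its groups covered nearly the same range, at a log2 fold change of -0.03 (SE 0.17, 95% interval -0.41 to 0.34, edgeR adjusted p = 0.945). Mthfd1 (chr12:76255298-76319803), which carries the dehydrogenase, cyclohydrolase and synthetase steps of the cytosol in a single protein, had 92.2, 181, 119, 167 and 180.3 CPM in the high libraries, against 83.6, 114, 109.7, 151 and 180.1 CPM in the low libraries. Both groups ran from about the same low to about the same high value. Its log2 fold change came to 0.21 (SE 0.24, 95% interval -0.32 to 0.74, edgeR adjusted p = 0.678).

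In the mitochondrial branch 4 of the 5 genes had a positive and 1 a negative log2 fold change. Of all tested genes 52.3% were positive and 47.7% negative. With chromosome shifts as offsets, described further on, Shmt2, Mthfd1l and Mthfd2 were negative. Shmt2 (chr10:127517123-127522444), the hydroxymethyltransferase of mitochondria, had 281, 619, 547, 766 and 815 CPM in the high libraries, against 403, 435, 631, 609.8 and 537 CPM in the low libraries. The highest 2 and the lowest value were all in the high group, with the low libraries between them. This gave a log2 fold change of 0.21 (SE 0.26, 95% interval -0.36 to 0.78, edgeR adjusted p = 0.704), and 0.39 without high 1.

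Mthfd2 (chr6:83305691-83325908), the mitochondrial dehydrogenase and cyclohydrolase of embryonic and dividing cells, had 114, 169.5, 155, 109.7 and 170.5 CPM in the high libraries, against 121, 83.9, 198, 155 and 115 CPM in the low libraries. The low group held both the lowest library, low 2, and the highest, low 3, and the log2 fold change was 0.09 (SE 0.23, 95% interval -0.41 to 0.60, edgeR adjusted p = 0.865). Its paralog Mthfd2l (chr5:90931117-91021368) had 11.7, 16.8, 14.5, 18.6 and 16.9 CPM in the high libraries, against 19.3, 9.71, 17.8, 8.36 and 9.03 CPM in the low libraries. The low libraries parted into 2 near the top and 3 below every high library, at a log2 fold change of 0.29 (SE 0.27, 95% interval -0.31 to 0.89, edgeR adjusted p = 0.591).

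Mthfd1l (chr10:3973118-4167081), the mitochondrial synthetase that sets formate free, had 30.6, 116, 73.4, 111 and 140.3 CPM in the high libraries, against 91.8, 57.9, 118, 118 and 104 CPM in the low libraries. High 1 was the lowest and high 5 the highest of the 10, with a log2 fold change of -0.06 (SE 0.35, 95% interval -0.82 to 0.70, edgeR adjusted p = 0.952) that was 0.17 without high 1. Aldh1l2 (chr10:83487450-83534140), which oxidises formyl-tetrahydrofolate in mitochondria and makes NADPH, had 29.4, 118, 101.05, 52.4 and 89.8 CPM in the high libraries, against 30.5, 66.9, 73.6, 39.6 and 30.3 CPM in the low libraries. High 2, high 3 and high 5 exceeded every low library, and high 1 was below all of them. The log2 fold change of 0.70 was the largest of the 10 in size but also had the widest interval (SE 0.39, -0.15 to 1.55, edgeR adjusted p = 0.324). Without high 1 it was 0.91 (adjusted p = 0.126).

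**Figure D3:**
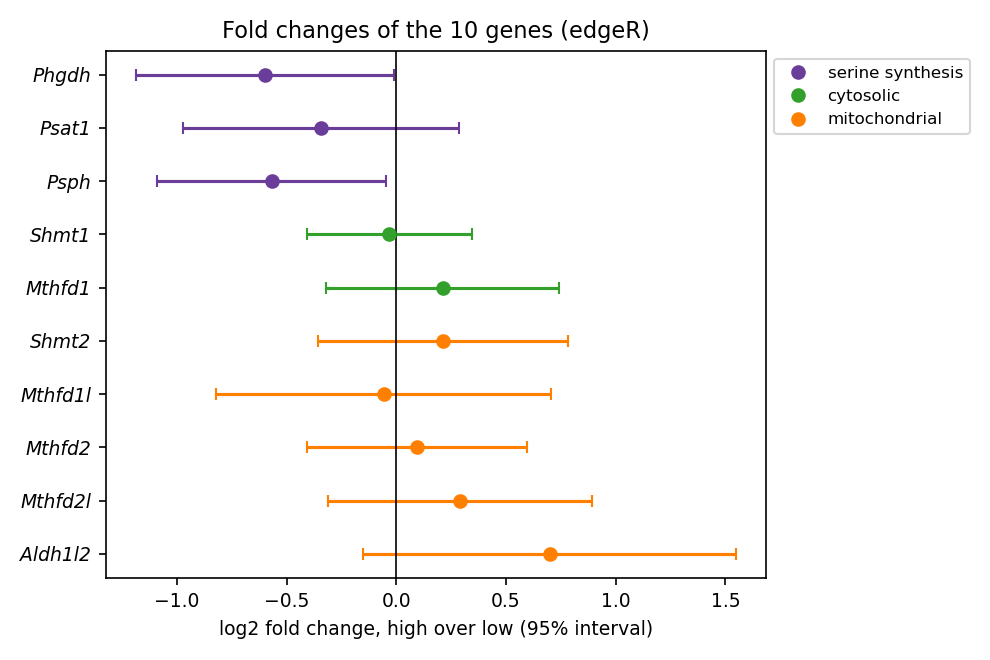
Log2 fold change, high over low, of the 10 genes with 95% intervals from edgeR (n = 5 each), coloured by branch. The 3 serine synthesis genes lie between -0.60 and -0.34 and the cytosolic and mitochondrial genes between -0.06 and 0.70, and 0 of the 10 passed the adjusted threshold.

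Some of these counts may hold reads of other genes, since the counting tool and its strand setting are not given. Phgdh has 19 annotated transcripts elsewhere that match it at 90.4 to 98.7% identity over at least 300 bases, and 7 of these genes are in the table. The closest, Gm7901, had counts equal to 0.58 to 1.45% of those of Phgdh. Aldh1l2 shares 1056 bases of exon with D10Wsu102e on the other strand, which averaged 79.4 ± 19.8 CPM in the high group and 60.9 ± 8.73 CPM in the low (SD, n = 5 each). Psph shares 452 bases with Cct6a, Shmt1 184 with Smcr8, Mthfd1 37 with Gm47525 and Shmt2 32 with Ndufa4l2, in each case on the other strand.

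Mitochondrial and cytosolic enzymes of the same step were then set against each other within each library, which removes the scaling between libraries. Per kilobase, the ratio of Shmt2 to Shmt1 RNA was 3.40, 5.57, 7.74, 7.61 and 9.34 in the high libraries, against 4.49, 5.58, 8.72, 5.40 and 4.91 in the low libraries. The mitochondrial RNA led in all 10 libraries, and the groups overlapped. On the log2 scale the ratio ran from 1.77 to 3.22 over the high and from 2.17 to 3.12 over the low libraries, with a difference between the means of 0.17 (exact permutation p = 0.571 two-sided, or 0.762 when adjusted over the 4 ratios). The ratio of Mthfd2 to Mthfd1 was 1.57, 1.196, 1.65, 0.836 and 1.204 in the high libraries, against 1.84, 0.935, 2.30, 1.30 and 0.814 in the low libraries. It lay on either side of parity in both groups, and its log2 difference was -0.09 (exact permutation p = 0.802, adjusted p = 0.802). Where parity lies depends on the exon lengths used, which count all annotated exons of a gene.

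The synthetases of mitochondria and cytosol and the 2 mitochondrial dehydrogenases overlapped between the groups too. The log2 ratio of Mthfd1l to Mthfd1 averaged -0.78 ± 0.47 in the high group and -0.37 ± 0.51 in the low (SD, n = 5 each), a difference of -0.40 (two-sided exact permutation p = 0.238, adjusted p = 0.762). The log2 ratio of Mthfd2 to Mthfd2l averaged 4.11 ± 0.35 in the high group and 4.35 ± 0.59 in the low, a difference of -0.24 (exact permutation p = 0.444, adjusted p = 0.762). With 5 against 5 libraries the smallest p such a test can give is 0.00794. The mean log2 deviation of the 5 mitochondrial genes minus that of the 2 cytosolic genes, each gene taken from its own mean over the libraries, came to 0.06 ± 0.35 over the high and -0.06 ± 0.51 over the low libraries, with overlap. With chromosome shifts subtracted the sign turned, to -0.04 ± 0.34 over the high and 0.04 ± 0.54 over the low libraries.

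**Figure D4:**
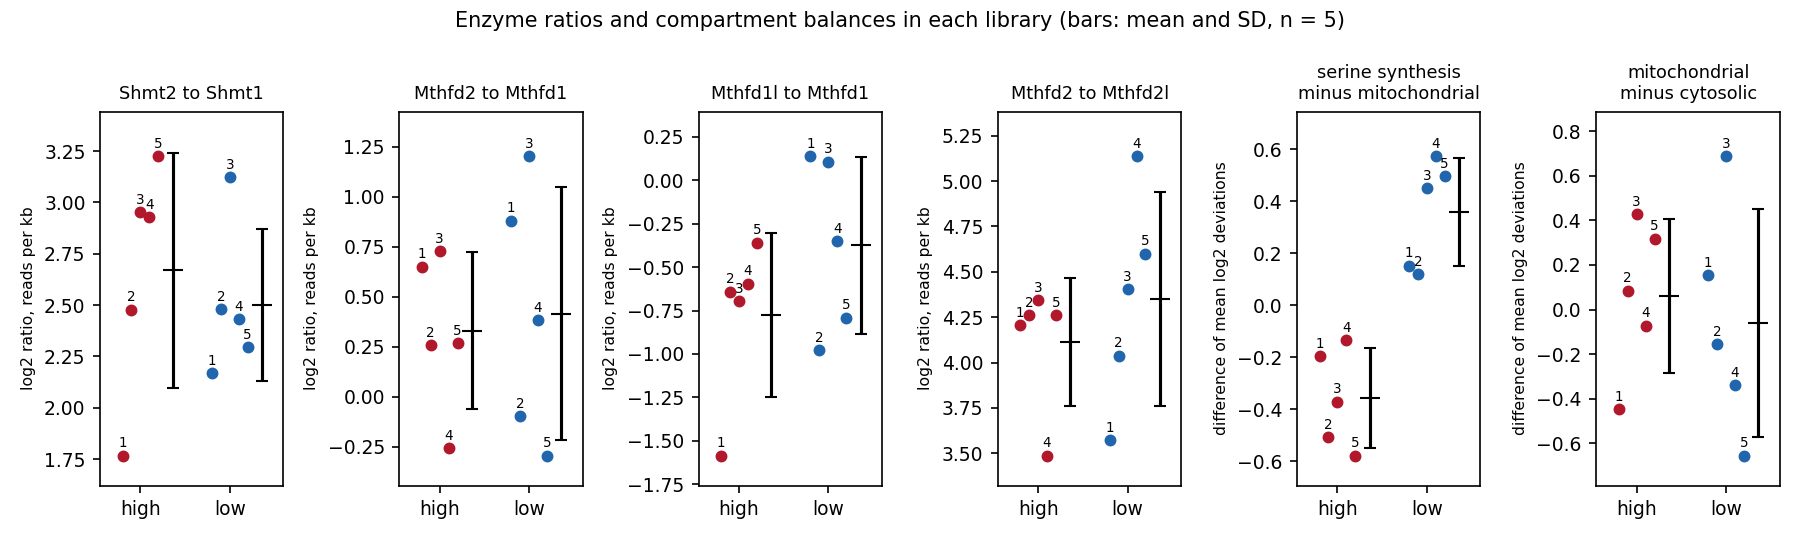
Log2 ratios of paired enzymes per kilobase, and log2 differences between branch means, in each library, with bars for the mean and SD (n = 5 each). The high and low groups overlap in all 4 ratios and in the mitochondrial minus cytosolic panel, and they do not overlap in the serine synthesis minus mitochondrial panel (-0.58 to -0.14 in the high, 0.12 to 0.57 in the low libraries).

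Serine synthesis was set against the mitochondrial branch in the same way. The mean log2 deviation of Phgdh, Psat1 and Psph minus that of the 5 mitochondrial genes was -0.20, -0.51, -0.37, -0.14 and -0.58 in high 1 to high 5, against 0.15, 0.12, 0.45, 0.57 and 0.49 in low 1 to low 5. Every high library was below 0 and every low library above it, with means of -0.36 ± 0.19 in the high group and 0.36 ± 0.21 in the low (SD, n = 5 each). This contrast was chosen after its values were seen, so it is given with no test, and the lack of overlap supports nothing by itself. The difference of -0.72 was -0.61 without Aldh1l2, where low 1 was at -0.02, and -0.70 without Phgdh. The groups did not overlap in either case, which is no check on a contrast chosen from the same values.

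Some chromosomes that carry these genes were also shifted between the groups. By library the shift of chromosome 10 was -0.0051, -0.12, 0.21, 0.34 and 0.42 in high 1 to high 5. In low 1 to low 5 it was -0.20, -0.02, -0.15, -0.19 and 0.01. The part of the chromosome shifts in the balance was not tested. The median gene of chromosome 10, which carries Shmt2, Mthfd1l and Aldh1l2, differed by 0.28 (log2, high minus low), and that of chromosome 6, which carries Mthfd2, by 0.30, whereas chromosome 19 with Psat1 differed by 0.02 and chromosome 5 with Psph and Mthfd2l by 0.0046. Chromosome 3 with Phgdh varied inside the high group, at 0.44 in high 1, -0.32 in high 2 and -0.36 in high 4. With each library's shift per chromosome subtracted, the serine synthesis minus mitochondrial difference was -0.47, high 4 was at 0.23 and low 1 at -0.04, and the groups overlapped. In the edgeR fit with these shifts as offsets, Aldh1l2 had a log2 fold change of 0.42 (adjusted p = 0.641) and Mthfd2l of 0.26 (0.674). The other mitochondrial genes were negative, Shmt2 at -0.13 (0.826), Mthfd1l at -0.40 (0.581) and Mthfd2 at -0.21 (0.681). Phgdh was at -0.43 (0.518), Psat1 at -0.40 (0.497) and Psph at -0.59 (0.214).

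Across the 10 libraries some of the genes went up and down together, given here as description with no test, since all points share the same 10 libraries and their depth. The pairs with the highest Pearson r were Phgdh and Psph (0.87), Psat1 and Mthfd1l (0.89), Shmt2 and Mthfd1l (0.89) and Psat1 and Shmt2 (0.79). Spearman's rho was 0.84, 0.78, 0.83 and 0.61 for these pairs. After the group means were removed, Pearson's r was 0.81, 0.91, 0.93 and 0.93. Without high 1 and low 3, the libraries that deviated most, it was 0.72, 0.64, 0.74 and 0.49 over the other 8. The next pair joined the cytosolic Mthfd1 and Shmt2, with r of 0.76 and a Spearman's rho of 0.65. Its r was 0.76 after the group means were removed and 0.81 over the same 8 libraries. Over all 10 libraries Shmt1 was at 0.63 to Mthfd1, 0.26 to Shmt2 and -0.28 to Aldh1l2. Without high 1 and low 3 these values were 0.57, 0.30 and -0.37. Shmt1 was at 0.07 to Phgdh and 0.41 to Mthfd1l over all 10, and at 0.77 and 0.67 without those 2 libraries. Among 12171 other tested genes above 1 CPM, those with the pattern most like Phgdh were Ripk2 (r = 0.94), Rbm10 (0.93) and Tfe3 (0.93), and those most like Mthfd2 were Slc35a2 (0.87), Aptx (0.86) and Adgrl3 (0.86). None of these 6 was called between the groups.

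Of the genes that bring serine, glycine and folate into cells and mitochondria, 12 could be tested. In edgeR 1 fell and 0 rose, beside 2.87% falls and 1.99% rises over all tested genes. At an unadjusted p under 0.05 there were 4 of the 12, beside 21.6% of all genes. The median log2 fold change was -0.04 (0.02 over all tested genes). The called gene was Slc38a2, the amino acid-regulated importer of small neutral amino acids, serine among them. It had 463, 560.4, 506, 463 and 394 CPM in the high libraries, against 840.5, 617, 683, 691 and 746 CPM in the low libraries. Every high library was below every low one, and it fell by 0.58 on the log2 scale (SE 0.14, edgeR adjusted p = 0.0394). The adjusted p exceeded 0.05 in 15 of 22 alternatives, up to 0.106, among them 9 of the 10 with a library left out (all but high 2), while the fold change stayed between -0.67 and -0.52.

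Slc38a1, a related importer that lies near it on chromosome 15, had 90.9, 49.2, 22.03, 18.3 and 30.7 CPM in the high libraries, against 164, 95.8, 96.5, 132 and 143 CPM in the low libraries. The groups did not overlap, but the log2 fold change of -1.58 (SE 0.41) missed the threshold (edgeR adjusted p = 0.0507). It was within it in 7 of 22 alternatives. DESeq2 called 1 rise (Slc46a1, a folate carrier) and 2 falls (Slc38a1 and Slc38a2) in this list, and limma-voom the same 2 falls.

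Enzymes around the pathway gave 0 calls in edgeR in each of 5 further lists. Of 7 other folate enzymes, Fpgs, which traps folate in cells, had a log2 fold change of -0.20 (adjusted p = 0.480). Of 7 genes of glycine cleavage and choline-derived supply, Sardh, the sarcosine dehydrogenase of mitochondria, stood at 1.22 (adjusted p = 0.0887), with 31.5 to 199 CPM in the high and 42.5 to 58.3 CPM in the low libraries, and Gldc, the glycine decarboxylase, was below 1.2 CPM in every library. Of 11 methionine cycle genes 9 were positive. Amd1 (0.85, adjusted p = 0.0986) and Ahcyl2 (0.60, 0.0992) had the smallest p. They lie on chromosomes 10 and 6, whose median genes differed by 0.28 and 0.30. Over 22 alternatives Amd1 ran from 0.52 to 0.99 and Ahcyl2 from 0.29 to 0.73. Of 13 purine synthesis genes Paics was at -0.31 (adjusted p = 0.215) and Impdh2 at -0.29 (0.268). All 9 tested genes of serine use and breakdown were positive with a median of 0.20, beside 52.3% of all genes, and Sdsl (1.38, adjusted p = 0.158) and Srr (0.33, 0.345) had the smallest p. At an unadjusted p under 0.05 the 4 lists after the folate enzymes held 1, 2, 1 and 1 genes in the order given. Over all tested genes the share was 21.6%. DESeq2 called 3 rises, Sardh, Amd1 and Pipox, the last with too few counts for the edgeR filter, and limma-voom called 0.

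ATF4 and its amino acid stress targets were a list of 22, of which 21 could be tested. Eif4ebp1, a repressor of cap-dependent translation, fell and 0 rose, beside 2.87% falls and 1.99% rises over all genes. At an unadjusted p under 0.05 there were 7 of the 21, beside 21.6% of all genes. Of the 21, 18 were negative with a median log2 fold change of -0.46, beside 47.7% negative over all genes. DESeq2 called 3 falls, Eif4ebp1, Slc7a5 and Fgf21, the last with too few counts for the edgeR filter, and limma-voom 1. Slc7a5, a large neutral amino acid transporter on chromosome 8, was at -0.97 in edgeR (adjusted p = 0.0725), and at -0.43 (adjusted p = 0.443) with the chromosome shift as an offset. Eif4ebp1 had 87.8, 106, 96.9, 202 and 93.5 CPM in the high libraries, against 283, 208, 386, 262 and 189 CPM in the low libraries. High 4 alone reached into the low range, and the log2 fold change was -1.18 (SE 0.27, edgeR adjusted p = 0.0338). It lies on chromosome 8, and with the chromosome shift as an offset it was at -0.66 (adjusted p = 0.197). The adjusted p was above 0.05 in 9 of 22 alternatives, among them those without high 2, high 3, high 5, low 1, low 2, low 3 or low 4.

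Atf4 itself had 241, 324, 247, 334 and 346 CPM in the high libraries, against 435, 329, 635, 511 and 330.1 CPM in the low libraries, a log2 fold change of -0.59 (edgeR adjusted p = 0.125). Low 3 was the highest library, as it was for Phgdh and Psph, and the summed level of the list was 1978 to 2589 CPM in the high libraries, against 4890 CPM in low 3 and 2341 to 3536 CPM in the other low libraries. The genes named above as known targets were at -0.60 for Phgdh, -0.34 for Psat1, 0.21 for Shmt2 and 0.09 for Mthfd2. With the chromosome shift as an offset all 4 were negative, at -0.43, -0.40, -0.13 and -0.21 in the same order, and Mthfd2 was at -0.019 without low 2. Of 14 proliferation genes 0 were called by edgeR, and 2 were under an unadjusted p of 0.05, beside 21.6% of all genes. Their median log2 fold change was -0.03. DESeq2 called 1 of them, Mcm5, and limma-voom 0. Mcm5, a replication helicase subunit on chromosome 8, was at -0.72 (edgeR adjusted p = 0.0566), and at -0.18 (0.640) with the chromosome shift as an offset, and Rrm2, of deoxynucleotide synthesis, at 0.55 (0.128).

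**Figure D5:**
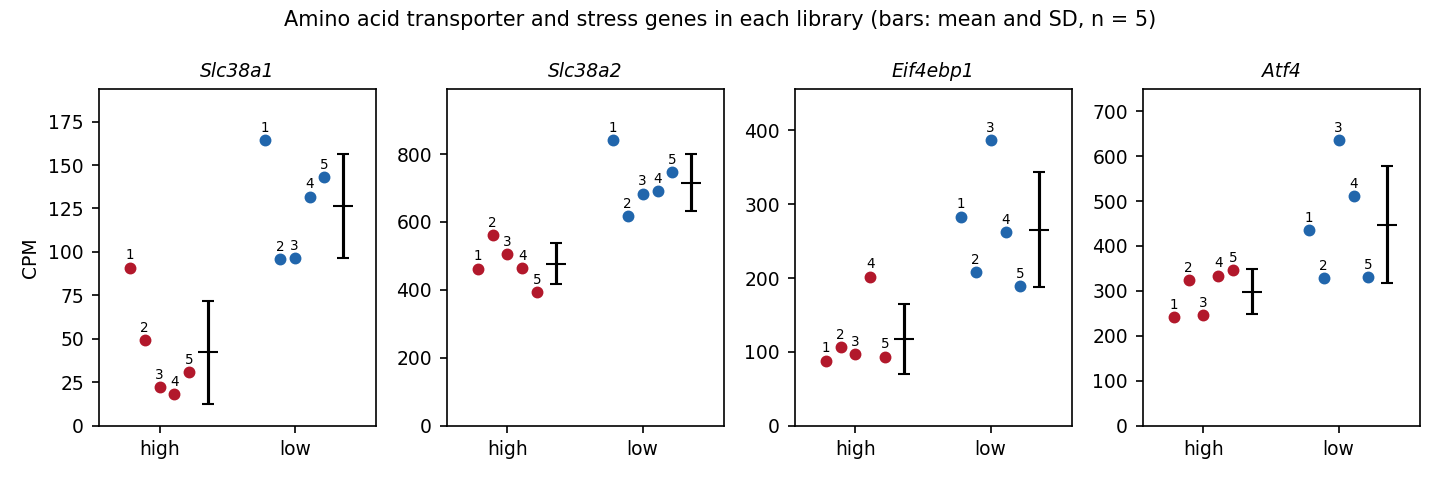
CPM of the importers Slc38a1 and Slc38a2 and of the stress genes Eif4ebp1 and Atf4 in each library, with bars for the mean and SD (n = 5 each). All 5 high libraries lie below all 5 low libraries for Slc38a1 and Slc38a2, and the groups overlap for Eif4ebp1 and Atf4.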

How the data were processed

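Poly(A) RNA of 10 cultured populations was sequenced, 5 per group. The deposited table holds raw read counts per Ensembl gene, 1 column per library, made by the authors. STAR 2.7.8a, DESeq2 1.36.0, R 4.2.1 and the build GRCm38 appear in the submitters' processing notes, with no role. How reads were counted, with which strand setting and on which annotation, is not stated there, and the library kit is directional per the labels. GENCODE M21 named 26206 of 26401 identifiers and gave exon lengths, each over all annotated exons of a gene with overlaps counted once. The authors' normalized table and sample sheet were not used.

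Genes were tested on the counts with edgeR 4.0.16 in R 4.3.3 (default expression filter by group, TMM, robust quasi-likelihood F-test, group as the only term, Benjamini-Hochberg over all tested genes, threshold 0.05, two-sided). Log2 values per library use a prior count of 2, and enzyme ratios a prior of 0.5 with a two-sided exact permutation test, adjusted over the 4 ratios. A chromosome's shift is the median deviation of its genes over a mean log2 CPM of 3. Copies were sought with blastn 2.17.0, and the plots come from matplotlib 3.10.9 (Python 3.11.15). As alternatives served upper-quartile and RLE scaling, TMM without mitochondrially encoded genes, other filters, DESeq2 1.42.0, limma-voom (limma 3.58.1) with and without quality weights, 2 blocks, a chromosome offset, each library left out, low 2 and low 3 left out together (earlier results set these apart), a threshold of 0.1 and other prior counts. The code was tested on simulated counts.

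Named were all 10 genes, Aldh1l1, of each pathway list the called genes and, where fewer than 2 were called, the 2 with the smallest p, and the 3 genes most like Phgdh and most like Mthfd2. A gene that this rule names is not reported here. Atf4, marker genes, genes called by DESeq2 and neighbouring or copied genes were added after their values were seen. The genes and lists were chosen with earlier results of these data known. The labels call the populations biological replicates, and the p-values measure the spread between these 10 libraries.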

Additional observations from a re-analysis of the deposited data

Results flagged for a closer look

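Of 28 groups of 5 libraries examined for a library far from the rest, 2 had one, and chance alone gives about 5% of groups. The log2 ratio of Mthfd1l to Mthfd1 RNA was -1.59 in high 1, where the nearest of the other high libraries was at -0.69. High 1 is also the lowest library for Mthfd1l. The log2 ratio of Mthfd2 to Mthfd2l RNA was 3.49 in high 4, where the nearest of the other high libraries was at 4.21. High 4 had the lowest Mthfd2 and the highest Mthfd2l of the high group. What lies behind either was not tested.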

How the results depend on the processing

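The count of called genes among the 10 was 0 in both directions under all 23 alternatives, leave-one-out fits included (range 0 to 0), while the number called over all genes ran from 56 without low 2 and low 3 to 1640 with DESeq2, beside 630. Phgdh, Psat1, Psph, Mthfd1, Mthfd2l and Aldh1l2 kept their sign in all 22 fits of each gene. The log2 fold change of Shmt1 turned to 0.016 with quality weights, 0.061 with the code number as a block and 0.0011 without high 1. It also turned to 0.047, 0.049 and 0.035 without high 3, low 4 and low 5. Its range was -0.11 to 0.049 with a library left out and -0.185 to 0.061 over all 22 fits. Mthfd1l turned to 0.17 without high 1 and to 0.02 without high 3, low 3 or low 4. Its range was -0.25 to 0.17 with a library left out, and it was at -0.40 with the chromosome offset. With the chromosome offset Shmt2 turned to -0.13 and Mthfd2 to -0.21. Without low 2 Mthfd2 was at -0.019, and its range with a library left out was -0.019 to 0.28. The Shmt2 to Shmt1 difference was -0.061 with chromosome shifts subtracted and 0.03 to 0.40 with a library left out. The Mthfd2 to Mthfd1 difference was 0.0065 without low 2 and low 3, and -0.26 to 0.11 with a library left out (0.06, 0.03 and 0.11 without high 4, low 1 and low 3). With chromosome shifts subtracted it was -0.38, that of Mthfd1l to Mthfd1 -0.68 and that of Mthfd2 to Mthfd2l -0.53. The Mthfd1l to Mthfd1 difference ran from -0.55 to -0.20 and that of Mthfd2 to Mthfd2l from -0.43 to -0.04 with a library left out. The cause of these turns was not tested. Sizes moved over 1.5 times with a library left out for Phgdh (-0.73 to -0.31), Psat1 (-0.49 to -0.15), Mthfd1 (0.09 to 0.37), Shmt2 (0.07 to 0.39) and Mthfd2l (0.17 to 0.48). Aldh1l2 was at 0.42 with the chromosome offset and at 1.24 without low 2 and low 3 (adjusted p = 0.199 in edgeR).

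The titles number the replicates in both groups, but same-numbered libraries correlated at 0.50, 0.03, 0.01, 0.17 and 0.25 over 9474 genes, and only high 1 and high 5 correlated best with their own number, so 2 of the 5 correlations were under 0.1 and the numbers were not taken to pair the libraries. The labels do not say that a number marks a shared source. With the replicate block 0 of the 10 genes were called, as without it, and the number called over all genes was 577. Slc38a2 had an adjusted p of 0.0744 under the block. The sign-flip form over the 5 pairs cannot change the 4 ratio differences, since the mean of the paired differences equals the difference of the group means. It is therefore no check on them, and its smallest possible p is 0.0625. With 5 libraries a group the 95% intervals still allow log2 changes down to -1.19 for Phgdh and up to 1.55 for Aldh1l2.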
